A study of Mus musculus with 17 samples.

Results

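The epidermal growth factor (EGF) receptor gene Egfr and the genes of its 7 ligands, Areg, Ereg, Hbegf, Btc, Tgfa, Egf and Epgn, were followed through irradiated and control mouse lungs. These 8 genes are the rows of the deposited count table that carry these symbols, of 45777 genes in the table. The family was chosen by the counts of these 6 groups, which were known beforehand, so its differences are given as descriptions and not as tests. Of the 8 genes, 7 passed the filter on low counts that kept 22052 genes, and Epgn did not.

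The lungs came from male wild-type C57BL/6 mice that were 6 weeks old at purchase. The left lung received 1 focal dose of 65 Gy or 75 Gy from an image-guided small-animal irradiator, and RNA was taken from the lesions of the irradiated lungs. Control lungs had no radiation. Libraries were made 2 weeks and 6 weeks later, the times at which the study places inflammation and fibrosis. Each group had 3 libraries except 65 Gy at 6 weeks, which had 2 here. The control libraries carried the numbers 3126 to 3128 (2 weeks) and 3135 to 3137 (6 weeks), those of 65 Gy 3129 to 3131 and 3138 and 3140, and those of 75 Gy 3132 to 3134 and 3141 to 3143. Values per library are listed in the order of these numbers. The model has limits for reading single genes, since a small high-dose field was applied to 1 lung and the sequenced tissue held all cells of the lesion. In such bulk RNA, fewer cells of a type and less RNA per cell cannot be told apart.

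Between 46764569 and 66797879 reads were counted on genes per library, with a median of 57608149. Values are CPM, the counts divided by the library total and set to a common scale, adjusted by edgeR's TMM factors. Fold changes are those of 1 edgeR quasi-likelihood fit of all libraries, on the log2 scale. Their standard error (SE) was derived from the test statistic of that fit, which estimates the spread over all groups together. The labels do not say whether each library came from its own mouse, so errors measure the spread between libraries. Both limits were passed by genes with a Benjamini-Hochberg adjusted p no higher than 0.05 and a log2 difference of 1 or more in either direction. The 5 alveolar type 2 markers (Sftpc, Sftpb, Lamp3, Abca3 and Slc34a2) summed to between 14885 and 27447 CPM, so every library held lung epithelium. Library 3134 (75 Gy, 2 weeks) stood apart with the largest sum of monocyte and macrophage markers, 1360 CPM against 257 to 729 CPM in the other 16 libraries. Control library 3126 (2 weeks) also stood apart from its group, since the chi-square of the counts per gene was 110 and 116 against its partners and 27.6 between them, and its alveolar macrophage markers (Siglecf, Marco, Chil3 and Ear2) summed to 1061 CPM against 402 and 449 CPM. For 3134 that chi-square was 240 and 137, and 99.6 between its partners. Both doses were compared with the same controls, so their differences from controls are not independent of each other. The share of all genes without overlap between groups was not counted, so overlap of libraries is given as a description.

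The EGF receptor is a tyrosine kinase of the ErbB family at the cell surface. Its ligands are made as membrane-bound precursors and are released by proteases, mainly ADAM17, after which the receptor pairs with itself or with ErbB2 or ErbB3 and signals through the RAS and MAP kinase cascade. In the lung, the receptor lies on epithelial cells and fibroblasts, takes part in repair of the epithelium after injury, and has been linked to fibrosis. Amphiregulin (Areg) and epiregulin (Ereg) bind the receptor with low affinity and are also made by leukocytes, while EGF, TGF-alpha, betacellulin and HB-EGF bind it with high affinity.

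Of the 7 ligand genes, 4 are neighbours on chromosome 5. In the RefSeq annotation of GRCm38.p6, the build to which the authors aligned their reads, Epgn (91027517 to 91035212), Ereg (91074617 to 91093649), Areg (91139599 to 91148432) and Btc (91357261 to 91402994) lie within 375 kb. Gaps of 39.4 kb, 45.9 kb and 209 kb separate them, and no other protein-coding gene is annotated between them. Tgfa is on chromosome 6 (86195038 to 86275744), Egf on chromosome 3 (129677574 to 129755322) and Egfr on chromosome 11 (16752203 to 16913907). The annotated long non-coding RNA Gm19610 overlaps the first bases of the Ereg interval, Gm39584 and Egfros lie inside Egfr, 6330410L21Rik overlaps Egf and Gm41698 overlaps Hbegf. How the counting treated strand is not stated, so reads from such overlaps could not be assigned with certainty.

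The 250 bases before the annotated start are shown for Areg, which lay above the controls at 6 weeks, for its chromosomal neighbour Btc, which lay below them, and for the receptor. They are RefSeq promoters of GRCm38.p6, at chr5:91139349-91139598 on the plus strand for Areg, chr5:91402995-91403244 on the minus strand for Btc and chr11:16751953-16752202 on the plus strand for Egfr. Promoters of 6 of the 8 genes were matched by symbol in the table used. Capitals mark matches to 4 motifs searched on both strands, TGACGTCA (the cyclic AMP response element), TGANTCA (the AP-1 element), TATAAA (the TATA box) and GGGCGG (the GC box).
Areg: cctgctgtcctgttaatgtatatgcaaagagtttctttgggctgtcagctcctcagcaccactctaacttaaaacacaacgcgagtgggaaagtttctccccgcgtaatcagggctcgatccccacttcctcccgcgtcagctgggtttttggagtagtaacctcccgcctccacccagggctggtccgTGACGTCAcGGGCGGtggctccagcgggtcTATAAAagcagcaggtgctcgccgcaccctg
Btc: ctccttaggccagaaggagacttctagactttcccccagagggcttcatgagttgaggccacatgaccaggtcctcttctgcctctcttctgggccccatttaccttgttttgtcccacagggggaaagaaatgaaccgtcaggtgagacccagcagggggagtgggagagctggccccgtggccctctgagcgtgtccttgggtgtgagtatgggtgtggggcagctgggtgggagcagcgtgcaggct
Egfr: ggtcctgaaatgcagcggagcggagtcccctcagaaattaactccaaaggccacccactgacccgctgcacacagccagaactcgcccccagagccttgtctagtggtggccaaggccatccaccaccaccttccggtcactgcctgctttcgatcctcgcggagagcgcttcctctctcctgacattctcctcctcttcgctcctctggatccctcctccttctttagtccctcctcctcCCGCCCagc
The Areg promoter held 3 of the motifs, TGACGTCA starting 61 bases, GGGCGG 52 bases and TATAAA 31 bases before the start. Among 32851 promoter windows of this length, 1.55% held TGACGTCA, 32.7% GGGCGG and 12.4% TATAAA. The Egfr promoter had 1 match, GGGCGG on the other strand, 9 bases before the start. The Btc promoter had no match, and 6.75% of all windows held TGANTCA, which none of these 3 windows did. These matches are letters in a window and were not measured as binding sites.

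Egfr, the receptor, was lower in irradiated than in control lungs. In the controls of 2 weeks it was measured at 41.9, 40.6 and 38.3 CPM. After 65 Gy it was at 26.6, 29.5 and 36.7 CPM, and after 75 Gy at 32.2, 29.7 and 28.2 CPM. All 6 irradiated libraries of 2 weeks lay below the 3 controls. At 6 weeks the controls held 31.9, 29.4 and 29.7 CPM, the 65 Gy libraries 25.7 and 26.0 CPM and the 75 Gy libraries 22.8, 20.1 and 22.0 CPM. The 3 groups of 6 weeks did not overlap and were ordered by dose. The log2 fold change of Egfr was -0.38 (SE 0.10) after 65 Gy and -0.42 (SE 0.10) after 75 Gy at 2 weeks, and -0.23 (SE 0.12) and -0.49 (SE 0.11) at 6 weeks. At 75 Gy the group mean was thus 1.34-fold lower than in controls at 2 weeks and 1.40-fold lower at 6 weeks. These differences were below the fold limit of a call in each comparison. That of 65 Gy at 6 weeks did not pass the adjusted p either (edgeR adjusted p = 0.209).

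Egfr also differed between the controls of both times, with a log2 fold change of -0.41 (SE 0.10) from 2 to 6 weeks and no overlap. From high to low, its group means were 40.2 CPM (controls, 2 weeks), 31.0 CPM (65 Gy, 2 weeks), 30.3 CPM (controls, 6 weeks), 30.02 CPM (75 Gy, 2 weeks), 25.9 CPM (65 Gy, 6 weeks) and 21.7 CPM (75 Gy, 6 weeks). The second to the fourth of these overlapped, and the other neighbours did not.

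Areg, the gene of amphiregulin, a ligand known from epithelial repair and type 2 immunity, was higher in irradiated lungs at 6 weeks only among the times measured. The controls of 6 weeks held 3.68, 2.34 and 3.002 CPM. The 65 Gy libraries held 6.66 and 13.2 CPM and the 75 Gy libraries 12.5, 23.9 and 26.6 CPM. Every irradiated library of 6 weeks lay above every control of that time. The log2 fold change was 1.72 (SE 0.42) after 65 Gy and 2.80 (SE 0.40) after 75 Gy, a 6.97-fold difference. At 75 Gy it lay between 2.61 and 3.06 when any 1 library was left out and passed both limits each time. At 65 Gy the value rested more on library 3140, since it was 1.16 and no longer passed without that library, 2.14 without 3138, and did not pass without control library 3136.

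At 2 weeks Areg did not separate the groups. The controls were at 12.7, 6.45 and 5.45 CPM, the 65 Gy libraries at 8.54, 5.95 and 4.56 CPM and the 75 Gy libraries at 6.34, 5.47 and 10.1 CPM. The log2 fold changes were -0.37 (SE 0.38) and -0.17 (SE 0.38), within their errors. Control library 3126 had the highest Areg of these 9 libraries, and without it the values turned to 0.10 and 0.31. The Areg level of the controls itself was lower at 6 than at 2 weeks, by a log2 fold change of -1.45 (SE 0.39) with no overlap, and of -0.98 without 3126. The effect of 75 Gy on Areg at 6 weeks exceeded that at 2 weeks by 2.97 (SE 0.55) on the log2 scale. This difference between effects passed both limits, as did those of 0.254% of all genes tested, and it kept this in 5 of 12 fits that left out 1 library, with values from 2.50 to 3.28. It lost it without 3126, 3133, 3135, 3136, 3137, 3142 or 3143. At 65 Gy the corresponding value was 2.09 (SE 0.57) and did not pass.

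Ereg, the gene of epiregulin, a ligand induced in inflamed tissue, was the member with the largest fold change in each of the 4 comparisons of an irradiated group with controls. The controls of 2 weeks were at 0.609, 0.236 and 0.153 CPM and those of 6 weeks at 0.243, 0.125 and 0.192 CPM, from 7 to 30 counts per library. After 65 Gy the libraries held 2.45, 1.25 and 0.695 CPM at 2 weeks and 1.53 and 3.84 CPM at 6 weeks. After 75 Gy they held 0.718, 1.70 and 5.73 CPM at 2 weeks and 4.25, 6.63 and 8.71 CPM at 6 weeks. All 11 irradiated libraries were above all 6 control libraries, although the lowest irradiated value was close to the highest control value.

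The log2 fold change of Ereg was 2.14 (SE 0.74) after 65 Gy and 3.02 (SE 0.74) after 75 Gy at 2 weeks. At 6 weeks it was 3.82 (SE 0.82) and 5.10 (SE 0.80). These values rest on the low control counts given above. Single libraries moved the values of 2 weeks, since the value at 75 Gy was 1.87 without 3134 and 3.80 without control library 3126, and the value at 65 Gy was 2.92 without 3126. Without 3134 the Ereg value of 75 Gy at 2 weeks no longer passed the adjusted p, and without 3126 that of 65 Gy passed it. At 75 Gy and 6 weeks the value stayed between 4.86 and 5.34 when 1 library was left out, and it passed both limits each time. At 65 Gy and 6 weeks it was 3.03 without library 3140 and did not pass then. The effect of 75 Gy was larger at 6 than at 2 weeks by 2.08 (SE 1.07), which did not pass the limits.

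Tgfa, the gene of TGF-alpha, was lower after irradiation at 6 weeks. The controls of 6 weeks held 32.5, 34.6 and 32.9 CPM, the 65 Gy libraries 21.9 and 24.7 CPM, and the 75 Gy libraries 19.5, 19.8 and 19.8 CPM. These 3 groups did not overlap, and the 75 Gy libraries of 6 weeks had the lowest Tgfa of all 17 libraries. The log2 fold change was -0.51 (SE 0.11) after 65 Gy and -0.76 (SE 0.09) after 75 Gy, the latter a 1.69-fold lower level. At 2 weeks the controls were at 23.2, 27.7 and 28.9 CPM, the 65 Gy libraries at 24.7, 26.9 and 26.0 CPM and the 75 Gy libraries at 23.4, 25.7 and 21.5 CPM. Those groups overlapped, with log2 fold changes of -0.04 (SE 0.09) and -0.18 (SE 0.09). Tgfa thus moved the other way from Areg at 6 weeks, and its controls also differed the other way, being higher at 6 than at 2 weeks by 0.33 (SE 0.09). The effect of 75 Gy on Tgfa differed between the times by -0.58 (SE 0.13), below the fold limit.

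Btc, the gene of betacellulin, was slightly lower in irradiated lungs. At 6 weeks the controls were at 5.60, 5.62 and 6.09 CPM, the 65 Gy libraries at 5.05 and 4.44 CPM and the 75 Gy libraries at 4.08, 4.79 and 3.98 CPM. Every irradiated library of 6 weeks lay below the controls, and the doses overlapped. At 2 weeks the controls of Btc were at 6.80, 4.77 and 6.22 CPM, the 65 Gy libraries at 4.57, 5.74 and 4.92 CPM and the 75 Gy libraries at 5.43, 5.16 and 4.24 CPM, with overlap. The log2 fold changes at 75 Gy were -0.26 (SE 0.15) at 2 weeks and -0.43 (SE 0.15) at 6 weeks. At 65 Gy they were -0.23 (SE 0.15) and -0.28 (SE 0.17).

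Hbegf, the gene of heparin-binding EGF-like growth factor, had the highest level of the ligands and overlapped between irradiated and control lungs in each comparison. At 2 weeks the controls were at 70.0, 38.6 and 43.0 CPM, the 65 Gy libraries at 75.6, 57.6 and 60.9 CPM and the 75 Gy libraries at 56.0, 57.2 and 68.2 CPM. Without control library 3126, which held the 70.0 CPM, all irradiated libraries of 2 weeks would lie above the controls, and the log2 fold changes were then 0.67 at 65 Gy and 0.58 at 75 Gy, against 0.36 (SE 0.19) and 0.26 (SE 0.19) with it. At 6 weeks the controls were at 51.1, 43.9 and 45.5 CPM, the 65 Gy libraries at 41.1 and 58.6 CPM and the 75 Gy libraries at 50.9, 56.0 and 59.6 CPM. The log2 fold changes of Hbegf at 6 weeks were 0.09 (SE 0.21) and 0.25 (SE 0.19).

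Egf and Epgn were near the lower end of what these libraries could measure. Egf, whose main source is not the lung, lay between 0.516 and 1.05 CPM in the libraries of 2 weeks and between 0.874 and 1.53 CPM in those of 6 weeks. The 75 Gy libraries of 6 weeks held 1.46, 1.43 and 1.53 CPM of Egf against 1.01, 0.874 and 1.45 CPM in the controls, which overlapped, with a log2 fold change of 0.41 (SE 0.27). Epgn, the gene of epigen, had from 0 to 10 counts per library. Its controls of 2 weeks had 8, 6 and 8 counts, and both 65 Gy libraries of 6 weeks had 0, which allows up to 3 counts per library from counting error alone.

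**Figure D1:**
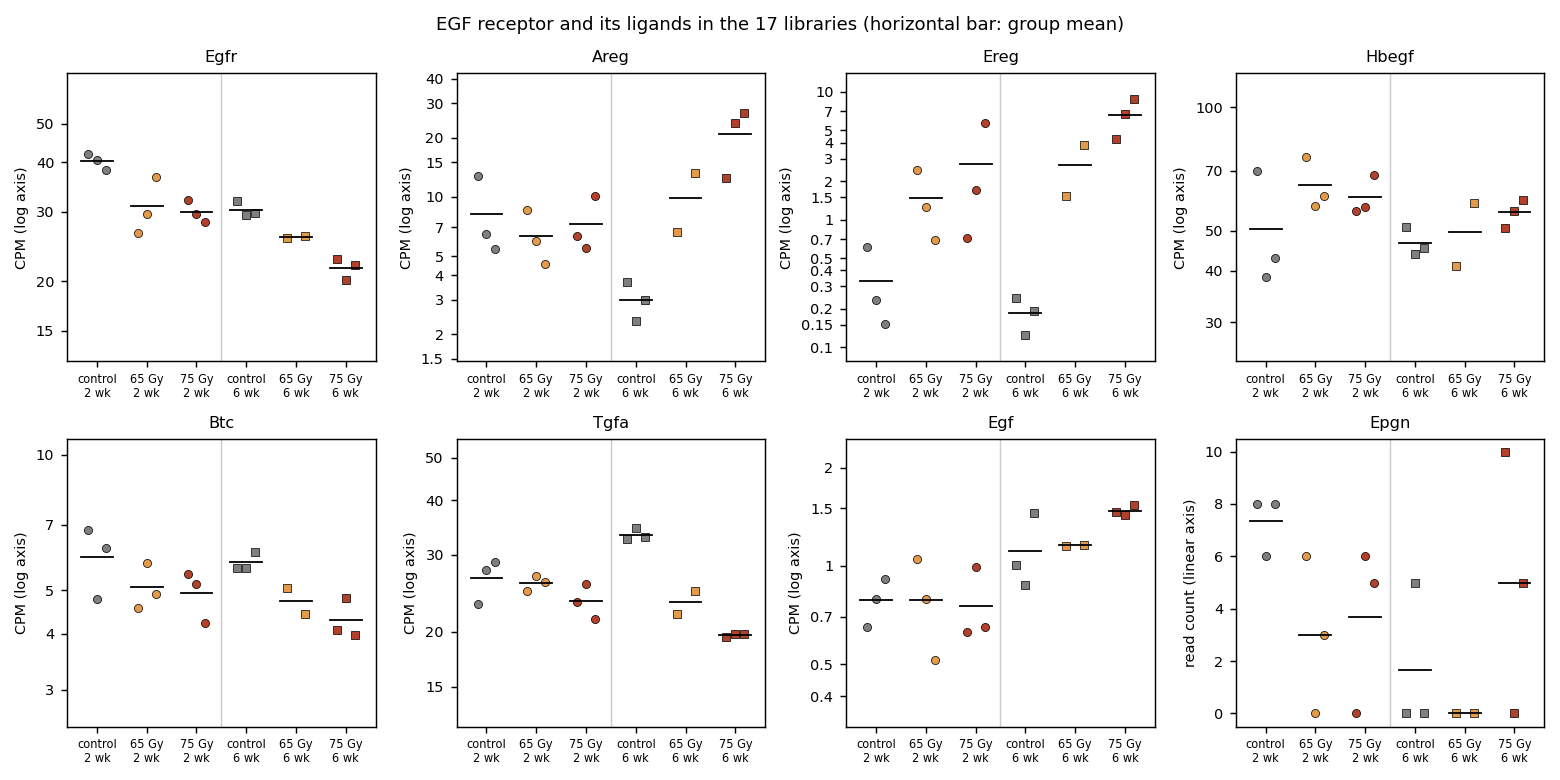
Level of the receptor and its 7 ligands in each of the 17 libraries by dose and time, in CPM on a log axis, and for Epgn as read counts on a linear axis. Points are libraries and bars are group means. At 6 weeks the 75 Gy libraries lie above the controls for Areg and Ereg and below them for Egfr, Tgfa and Btc.

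Divided by transcript length, the levels of the genes can be set side by side. The length was the mean of the GENCODE vM21 transcripts that carry the RefSeq accessions of the count table. In the controls of 6 weeks, Hbegf was the most abundant ligand at 19.7 ± 1.61 CPM per kilobase (SD, n = 3), followed by Tgfa at 7.37 ± 0.237, Egfr at 4.61 ± 0.204, Areg at 2.47 ± 0.554, Btc at 2.01 ± 0.0977, Egf at 0.294 ± 0.0799 and Ereg at 0.0452 ± 0.0144 (SD, n = 3 each). In that order only Areg and Btc, and Ereg and Epgn, overlapped between neighbours. After 75 Gy at 6 weeks, Areg was second at 17.3 ± 6.17 CPM per kilobase (SD, n = 3) and overlapped with Hbegf at 23.4 ± 1.83 CPM per kilobase (SD, n = 3). Ereg reached 1.58 ± 0.541 CPM per kilobase (SD, n = 3) and overlapped with Btc at 1.49 ± 0.154 CPM per kilobase (SD, n = 3). Tgfa stood at 4.35 ± 0.0448 and Egfr at 3.29 ± 0.211 CPM per kilobase (SD, n = 3 each). The order of the ligands at 6 weeks was the same when the longest transcript gave the length.

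Of the 7 genes tested, 1 passed both limits at 75 Gy and 2 weeks (Ereg) and 2 at 75 Gy and 6 weeks (Areg and Ereg), in comparisons in which 7.74% and 10.4% of all 22052 genes passed. At 65 Gy, 0 passed at 2 weeks and 2 at 6 weeks (Areg and Ereg), where 4.35% and 5.28% of all genes did. At an unadjusted p under 0.05, 2 members were found at 65 Gy and 2 weeks (Egfr and Ereg), against 25.4% of all genes, and DESeq2 called 1 (Ereg), against 5.44%. The adjusted p alone was passed by 2 members at 75 Gy and 2 weeks (Egfr and Ereg, against 22.3% of all genes) and by 5 at 75 Gy and 6 weeks (Egfr, Areg, Ereg, Btc and Tgfa, against 36.0%). It was passed by 1 at 65 Gy and 2 weeks (Egfr, against 11.0%) and by 3 at 65 Gy and 6 weeks (Areg, Ereg and Tgfa, against 14.7%). Since the family was chosen with these groups known, the counts describe the members and nothing is read from them. Among the 12 other fits of each comparison, Egfr passed the adjusted p in 11 at 75 Gy and 2 weeks, in 12 at 75 Gy and 6 weeks and in 6 at 65 Gy and 2 weeks. At 65 Gy and 6 weeks Egfr passed the adjusted p in 0 of 11 other fits. Tgfa passed it in 12 of 12 at 75 Gy and in 10 of 11 at 65 Gy at 6 weeks, and Btc in 5 of 12.

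**Figure D2:**
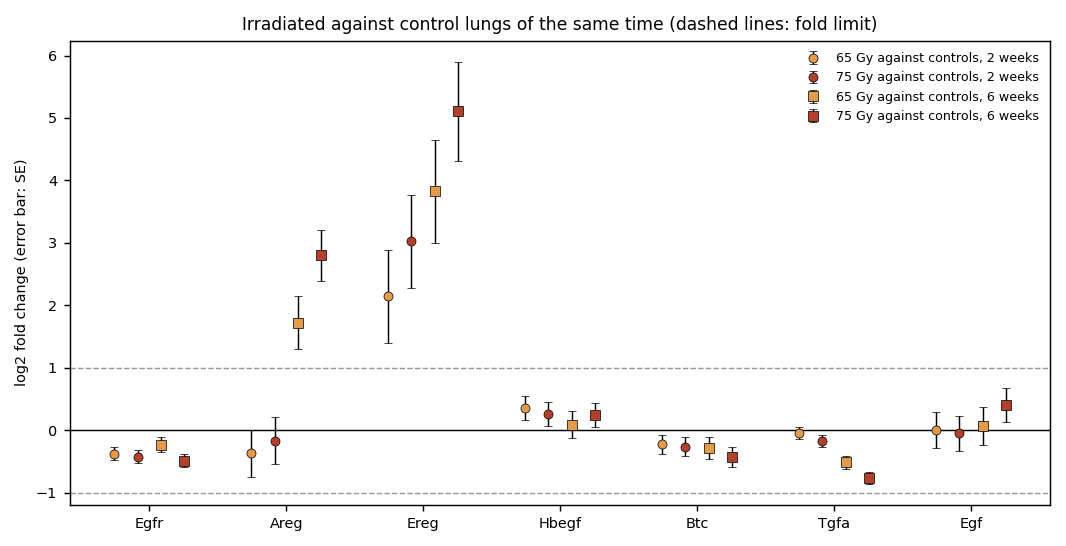
Fitted log2 fold change of the 7 tested genes in the 4 comparisons of irradiated with control lungs of the same time, with the SE as error bars and the fold limit as dashed lines. Areg at 6 weeks and Ereg at both times lie above 1, Tgfa at 75 Gy and 6 weeks is lowest at -0.76, and the other values lie between -0.51 and 0.41.

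Between the doses no gene of the whole table passed both limits, which is 0% at both times. Over all genes, 1570 at 2 weeks (7.12%) and 1431 at 6 weeks (6.49%) had an unadjusted p under 0.05 in edgeR, and DESeq2 called 7 (0.0317%) and 14 (0.0635%). Of the members, 0 at 2 weeks and 3 at 6 weeks (Areg, Egfr and Tgfa) had an unadjusted p under 0.05, and DESeq2 called 0 members at both times. At 6 weeks the log2 fold change of 75 Gy against 65 Gy was 1.08 (SE 0.43) for Areg, 1.28 (SE 0.72) for Ereg, -0.26 (SE 0.12) for Egfr and -0.25 (SE 0.11) for Tgfa. The Ereg, Egfr, Tgfa and Egf libraries of the doses did not overlap, and those of Areg, Hbegf and Btc did. With 3 libraries against 2, the share of all genes without overlap was not counted, so nothing is read from this. The value of Areg was 0.65 without library 3138 and 1.64 without 3140, and that of Ereg 0.75 and 2.07. At 2 weeks the value of Ereg was 0.88 (SE 0.64), and it turned to -0.27 without library 3134. Between the controls of both times, 0 members passed both limits in edgeR, against 0.576% of all genes. At an unadjusted p under 0.05 there were 3 (Areg, Egfr and Tgfa), against 15.5% of all genes, and DESeq2 called 1 (Areg), against 1.02%.

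Over the 17 libraries, the levels of Areg and Ereg ran together, with a Pearson r of 0.83 on log2 CPM. Tgfa ran against them, at -0.88 with Areg and -0.87 with Ereg. Egfr ran against Ereg at -0.75 and with Btc at 0.64. The libraries share their groups and these values describe that pattern, with no p. Spearman's rho gave 0.81, -0.86, -0.86, -0.77 and 0.65 for the same pairs. Areg and Btc, neighbours on chromosome 5, had r = -0.55.

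Ereg was the ligand with the widest range of group means, and the genes most like it and most like Egfr over the 17 libraries were sought by Pearson r of log2 CPM. The search covered 15963 other genes that passed the filter with a mean of at least 1 CPM. For Ereg these were Ctla4 (0.969), a checkpoint receptor of T cells, Rgs1 (0.966), a regulator of G protein signalling in lymphocytes, Glipr1 (0.961), Evi2a (0.957) and Gpr65 (0.956), a proton-sensing receptor of leukocytes. For Egfr they were Ppp2r5b (0.955), a regulatory subunit of protein phosphatase 2A, Clock (0.936), a core factor of the circadian clock, Rbm10 (0.927), Bicd2 (0.923) and Gm36317 (0.908). With Spearman's rho, 2 of the 5 for Ereg (Ctla4 and Gpr65) and 3 of the 5 for Egfr (Ppp2r5b, Clock and Bicd2) were again among the 5 highest.

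Of 46 other genes of the ErbB pathway, 45 were tested with the same fit, and their counts stand beside the shares of all genes given above for both limits and for the adjusted p alone. At 75 Gy and 2 weeks, 2 rose and 2 fell past both limits, and at 75 Gy and 6 weeks 2 rose and 0 fell. At 65 Gy, 2 rose and 0 fell at each time. The adjusted p alone was passed by 8 higher and 11 lower genes at 75 Gy and 2 weeks and by 5 higher and 18 lower at 75 Gy and 6 weeks, where 22.3% and 36.0% of all genes passed it. At 65 Gy it was passed by 4 higher and 3 lower at 2 weeks and 4 higher and 6 lower at 6 weeks, against 11.0% and 14.7% of all genes. The median log2 fold change of the 45 genes at 75 Gy was -0.07 at 2 weeks and -0.19 at 6 weeks, where that of all genes was 0.00 and 0.04. At 65 Gy it was -0.03 and -0.13, where that of all genes was -0.01 and 0.01.

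Of the 3 other receptors, Erbb2 and Erbb3, the partners of the EGF receptor in signalling, were lower at 75 Gy and 6 weeks. Erbb2 was at 51.7, 55.1 and 58.1 CPM in the controls of 6 weeks and at 44.6, 30.4 and 35.2 CPM after 75 Gy, a log2 fold change of -0.58 (SE 0.14, edgeR adjusted p = 0.00454). Erbb3 was at 99.2, 104 and 101 CPM and at 81.6, 69.6 and 65.6 CPM, a log2 fold change of -0.49 (SE 0.15, edgeR adjusted p = 0.0221). Neither group pair overlapped, and both changes were below the fold limit. At 2 weeks Erbb2 and Erbb3 had log2 fold changes of -0.25 (SE 0.14) and -0.31 (SE 0.15), with edgeR adjusted p = 0.216 and 0.167. Erbb4 was at most 1.26 CPM in any library and did not pass the adjusted p in any of the 4 comparisons.

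Of the 5 genes of ligand release, 3 were higher and 1 lower by the adjusted p alone at 75 Gy and 2 weeks. At 75 Gy and 6 weeks 1 was higher and 1 lower, against 22.3% and 36.0% of all genes at these times. The lower 1 was Rhbdf1 both times, named here after its values were seen. At 6 weeks Rhbdf1 held 71.7 to 79.5 CPM in the controls and 42.7 to 54.2 CPM after 75 Gy. Adam17, the main sheddase of the ligands, was higher at 75 Gy. It was at 97.1, 93.0 and 99.8 CPM in the controls of 2 weeks and at 119, 117 and 181 CPM after 75 Gy, a log2 fold change of 0.52 (SE 0.13, edgeR adjusted p = 0.00759). At 6 weeks it was at 74.4, 69.8 and 74.0 CPM in the controls and at 92.9, 95.0 and 94.0 CPM after 75 Gy, a log2 fold change of 0.37 (SE 0.13, edgeR adjusted p = 0.0313). Library 3134 held the 181 CPM. After 65 Gy Adam17 was also above all controls at both times, by 0.30 (SE 0.12) and 0.37 (SE 0.14), which did not pass (edgeR adjusted p = 0.136 and 0.0911).

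Of the 16 feedback inhibitors, 6 were lower and 0 higher by the adjusted p alone at 75 Gy and 2 weeks, and 9 lower and 1 higher at 75 Gy and 6 weeks, against 22.3% and 36.0% of all genes in either direction. The higher 1 was Dusp5, a phosphatase of MAP kinases, which is named here after its values were seen and had a log2 fold change of 0.94 (SE 0.22, edgeR adjusted p = 0.00398). Errfi1, which encodes a direct inhibitor of the EGF receptor kinase, was the 1 that passed both limits. It was at 561, 422 and 476 CPM in the controls of 2 weeks and at 99.1, 158 and 182 CPM after 75 Gy, with no overlap, and fell by 1.73 on the log2 scale (SE 0.33, edgeR adjusted p = 0.00195). It passed both limits in 12 of 12 other fits. The 65 Gy libraries of 2 weeks, at 195, 296 and 323 CPM, also lay below the controls, by -0.84 (SE 0.32, edgeR adjusted p = 0.112). At 6 weeks Errfi1 did not separate the groups, at 540, 475 and 516 CPM in the controls and 441, 488 and 584 CPM after 75 Gy, a log2 fold change of -0.02 (SE 0.32, edgeR adjusted p = 0.974). The 2 libraries of 65 Gy at 6 weeks differed widely, at 159 and 519 CPM. The difference between its 75 Gy effects at 6 and 2 weeks was 1.72 (SE 0.46), which did not pass (edgeR adjusted p = 0.131).

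Among the 4 neuregulins, of which 3 were tested, ligands of ErbB3 and ErbB4, Nrg2 fell at 75 Gy and 2 weeks, from 7.14, 10.7 and 13.9 CPM to 4.78, 6.19 and 3.01 CPM, by 1.18 on the log2 scale (SE 0.25, edgeR adjusted p = 0.00365). Without library 3128 or 3134 its change was -0.93 or -0.94, below the fold limit, and with only the groups compared in the fit its edgeR adjusted p was 0.0747. At 6 weeks it was at 9.75, 11.8 and 11.5 CPM in the controls and at 7.96, 6.35 and 6.04 CPM after 75 Gy, a log2 fold change of -0.70 (SE 0.25, edgeR adjusted p = 0.0381). Of the 7 adaptor genes, 0 passed both limits in any of the 4 comparisons. The adjusted p alone was passed by 2 higher (Grb2 and Shc1) and 2 lower (Gab1 and Plcg1) at 75 Gy and 2 weeks and by 4 lower (Gab1, Plcg1, Ptpn11 and Sos1) at 6 weeks, against the same 22.3% and 36.0% of all genes. These names are given after their values were seen.

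Of the 11 early response genes, which growth factor signalling induces, 3 were higher and 1 lower by the adjusted p alone at 75 Gy at each time. At 65 Gy 2 were higher and 1 lower at 2 weeks, and 3 higher and 0 lower at 6 weeks. The shares of all genes were 22.3%, 36.0%, 11.0% and 14.7%. The lower 1 was Jun each time, named here after its values were seen. At 2 weeks Jun held 294 to 304 CPM in the controls and 139 to 175 CPM after 75 Gy. Etv4, an ETS transcription factor, rose in all 4 comparisons. It was at 0.264, 0.107 and 0.267 CPM in the controls of 2 weeks and at 1.10, 1.40 and 2.43 CPM after 75 Gy, and at 0.405, 0.446 and 0.367 CPM in the controls of 6 weeks and at 1.64, 2.11 and 2.87 CPM after 75 Gy. Its log2 fold change at 75 Gy was 2.93 (SE 0.42, edgeR adjusted p = 0.000291) at 2 weeks and 2.43 (SE 0.39, edgeR adjusted p = 0.000329) at 6 weeks. At 65 Gy it was 2.67 (SE 0.42, edgeR adjusted p = 0.00100) and 2.18 (SE 0.42, edgeR adjusted p = 0.00358). Fosl1, a component of AP-1, rose at 2 weeks, by 2.66 at 75 Gy (SE 0.75, edgeR adjusted p = 0.0190) and 2.77 at 65 Gy (SE 0.75, edgeR adjusted p = 0.0279), from 1 to 6 counts in the controls. At 75 Gy its edgeR adjusted p was 0.0758 without library 3127, 0.0505 without 3128 and 0.0750 without 3134. At 65 Gy it was between 0.0548 and 0.0973 (edgeR) without any 1 of 3127, 3128, 3129, 3130 or 3131.

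Junb, another AP-1 component, rose at 6 weeks by 1.14 at 75 Gy (SE 0.38, edgeR adjusted p = 0.0282) and 1.29 at 65 Gy (SE 0.41, edgeR adjusted p = 0.0474). Its controls of 6 weeks held 292, 119 and 107 CPM, with library 3135 near the 65 Gy library 3138 at 296 CPM. Junb passed both limits in 9 of 12 other fits at 75 Gy and in 6 of 11 at 65 Gy. Without 3135 its log2 fold change was 1.75 at 75 Gy and 1.90 at 65 Gy, and without 65 Gy library 3140 it was 0.79. It also lost the call at both doses without 3136 or 3137, at 75 Gy without 3143 and at 65 Gy without 3138. Library 3135 also had 191 CPM of Fos, a gene named after its values were seen, against 48.96 and 52.2 CPM in the other controls of 6 weeks and 183, 218 and 348 CPM after 75 Gy. Its Areg level of 3.68 CPM was the highest of the controls of 6 weeks and below all irradiated libraries of that time. The part of this early response in the level of Areg was not tested.

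**Figure D3:**
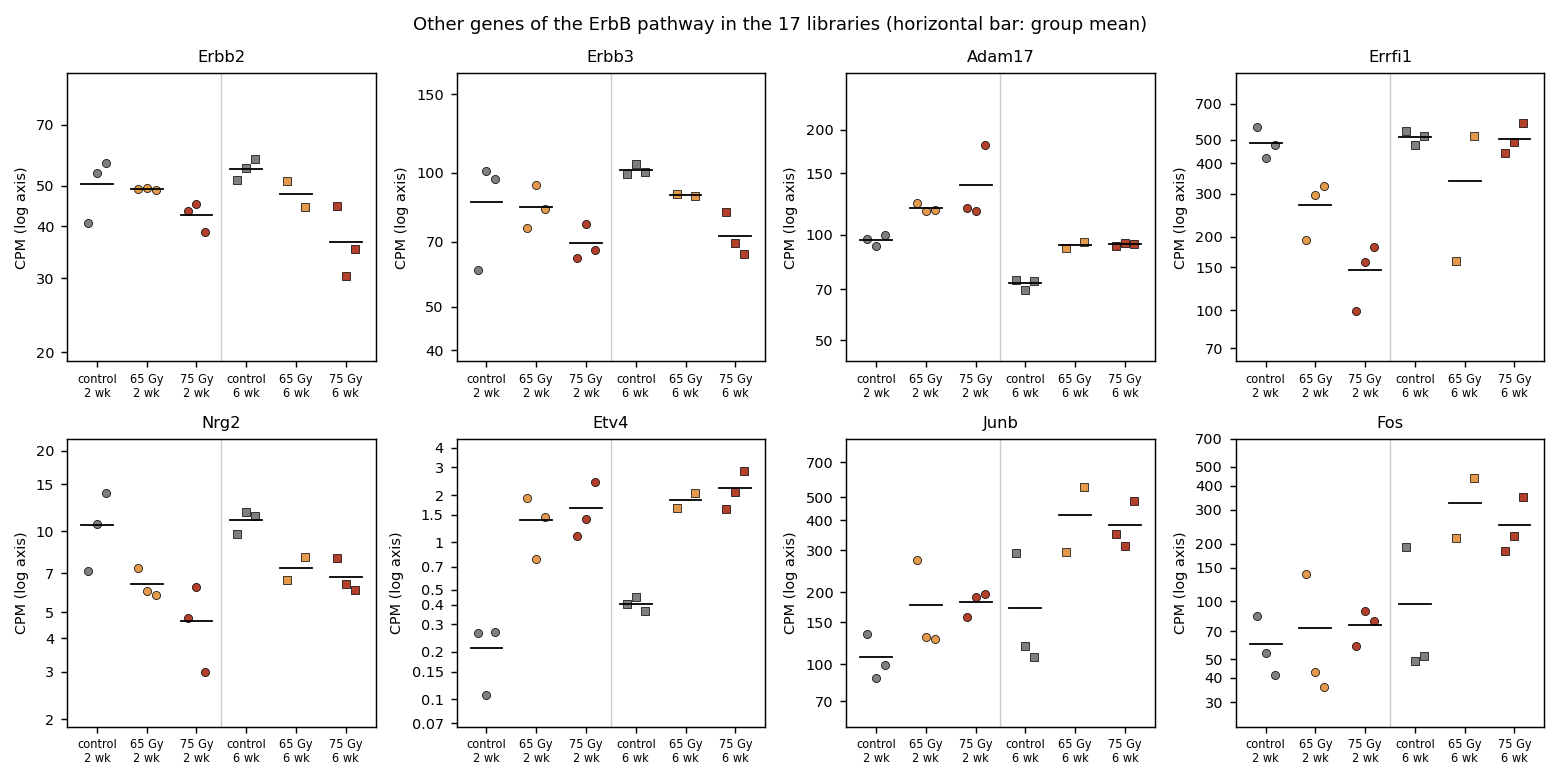
Level in CPM (log axis) of 8 other genes of the pathway in each of the 17 libraries, with group means as bars. Errfi1 is low at 75 Gy and 2 weeks (99.1 to 182 CPM) and near the controls at 6 weeks, Etv4 is higher in every irradiated library than in the controls, and Adam17 is above the controls at both doses.

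Markers of several cell types moved with the ligands and the receptor. The 4 mast cell and basophil markers (Cpa3, Tpsb2, Mcpt8 and Ms4a2) summed to between 2.43 and 3.18 CPM in the controls of 6 weeks, 5.18 and 8.40 CPM after 65 Gy and between 18.7 and 23.0 CPM after 75 Gy. At 75 Gy and 6 weeks Cpa3 and Tpsb2 passed both limits and Mcpt8 and Ms4a2 did not, and Tpsb2 was at 0 in 2 of the 17 libraries. The 4 transitional epithelium markers (Krt8, Cldn4, Sfn and Krt19) summed to between 318 and 347 CPM in the controls of 6 weeks, 443 and 471 CPM after 65 Gy and between 457 and 587 CPM after 75 Gy, with Cldn4 and Sfn past both limits at 75 Gy. The 3 markers of type 2 innate lymphoid cells (Gata3, Il1rl1 and Il13) summed to between 11.6 and 13.1 CPM in the controls of 6 weeks and between 20.5 and 23.2 CPM after 75 Gy. Il1rl1 alone of them passed both limits there, and Il13 was at 0 in 14 libraries. Gata3 went the other way, with a log2 fold change of -0.33 that did not pass. The 4 alveolar macrophage markers summed to between 371 and 511 CPM in the controls of 6 weeks, 1383 and 1931 CPM after 65 Gy and between 1245 and 1454 CPM after 75 Gy. Chil3 and Ear2 passed both limits at 6 weeks at both doses and Marco at 65 Gy. At 75 Gy and 6 weeks Siglecf and Marco did not pass, with log2 fold changes of 0.06 and 0.27. The sums of 2 weeks overlapped, at 402 to 1061 CPM in the controls and 511 to 834 CPM after irradiation. Single markers did move at 2 weeks. At 75 Gy Marco rose past both limits, by 2.62 (SE 0.29), and at 65 Gy 1 marker rose and 1 fell past them. The sums of these 4 lists were higher at 75 Gy and 6 weeks, as was Areg, and they were not alone in this. The monocyte and macrophage and the T cell sums, given below, also lay above the controls there. So did the alveolar type 2 sums, at 19795 to 27447 CPM against 17692 to 19631 CPM. That alveolar type 2 sum joined opposite directions, with log2 fold changes of 0.53 for Sftpc and 0.59 for Lamp3. They were -0.35 for Abca3, -0.25 for Slc34a2 and -0.13 for Sftpb, and none of these markers passed both limits. The part of any of these lists in the level of Areg was not tested.

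The 4 monocyte and macrophage markers (Csf1r, Ccr2, Ly6c2 and C1qa) summed to between 257 and 314 CPM in the 6 controls and between 490 and 1360 CPM in the 11 irradiated libraries, which separates them as Ereg does. Library 3134 was highest for the list and, among the libraries of 2 weeks, for Ereg. The 4 T cell markers (Cd3e, Cd4, Cd8a and Foxp3) summed to between 22.6 and 37.9 CPM in the controls of both times. The irradiated libraries of both times held 29.6 to 84.6 CPM, which overlapped with the controls. At 6 weeks alone they did not overlap, at 43.7 and 48.3 CPM after 65 Gy and 45.6 to 51.6 CPM after 75 Gy. At 75 Gy Foxp3 passed both limits at both times and Cd4 at 6 weeks, while Cd3e and Cd8a did not pass both. At 75 Gy and 6 weeks the log2 fold change was 0.58 for Cd3e and -0.47 for Cd8a. Whether either cell type carried the Ereg counts was not tested. The 5 endothelium markers (Cldn5, Gpihbp1, Plvap, Ednrb and Pecam1) summed to between 1798 and 1981 CPM in the controls and between 678 and 1391 CPM in the irradiated libraries, and at 75 Gy and 6 weeks to between 861 and 995 CPM. The 5 alveolar type 1 markers (Ager, Hopx, Pdpn, Aqp5 and Rtkn2) summed to between 3198 and 3659 CPM in the controls of 6 weeks. After 75 Gy they summed to between 2340 and 2709 CPM. Of these, Rtkn2 alone passed both limits at 75 Gy and 6 weeks, with a log2 fold change of -1.16. Ager, Hopx and Aqp5 were at -0.35, -0.74 and -0.34, and Pdpn went the other way, at 0.22. The 5 fibroblast markers were Pdgfra, Col1a1, Col13a1, Dcn and Tcf21. They summed to between 837 and 964 CPM in the controls of 6 weeks and between 790 and 928 CPM after 75 Gy. That fibroblast sum joined opposite directions. Its log2 fold changes at 75 Gy and 6 weeks were -0.80 for Pdgfra, -0.56 for Tcf21 and -0.33 for Col13a1. They were 0.83 for Dcn and 0.26 for Col1a1. Pdgfra and Dcn passed the adjusted p, and 0 of the 5 passed both limits. The sum of the 3 club cell markers (Scgb1a1, Scgb3a2 and Cyp2f2) was also lower. It was 17407 to 20405 CPM in the controls of 6 weeks and 9955 to 13583 CPM after 75 Gy. At 75 Gy and 6 weeks Scgb1a1 and Cyp2f2 had log2 fold changes of -0.69 and -1.24, with Cyp2f2 past both limits. Scgb3a2 went the other way, at 0.40, and overlapped with the controls. The 5 neutrophil markers (S100a8, S100a9, Csf3r, Cxcr2 and Retnlg) summed to between 432 and 720 CPM in the 6 controls and between 116 and 338 CPM in the irradiated libraries. The share of these cell types in the lower Egfr and Tgfa levels was not tested.

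**Figure D4:**
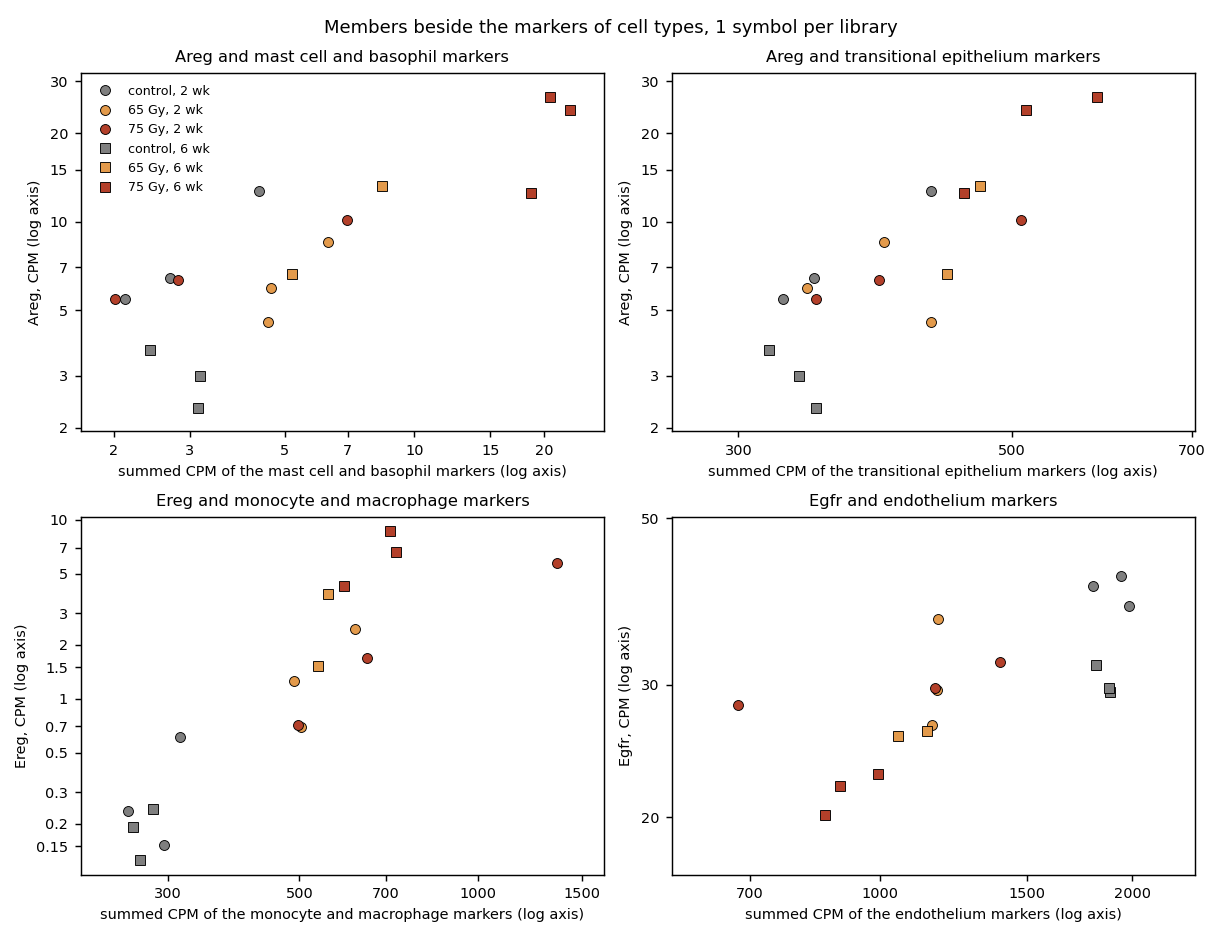
Areg, Ereg and Egfr (CPM, log axis) against the summed CPM of cell type markers (log axis), 1 symbol per library. The 75 Gy libraries of 6 weeks have mast cell and basophil sums of 18.7 to 23.0 CPM with 12.5 to 26.6 CPM of Areg, and the 6 controls have the lowest monocyte and macrophage sums and the lowest Ereg.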

How the data were processed

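Total RNA from lung lesions was made into stranded, poly(A)-selected libraries by the authors. Their pipeline used Trimmomatic for trimming, HISAT2 for mapping (genome build GRCm38.p6) and StringTie for expression. The deposited values are raw read counts per gene, unnormalised, for 17 libraries, and how StringTie output became counts is not given in the sources used here. A further 65 Gy library of 6 weeks that the numbering implies was not analysed here.

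Groups were taken from the sample labels. The counts were filtered with filterByExpr (minimum count 10, minimum total 15), which kept 22052 of 45777 genes, and were fitted with edgeR 4.0.16 in R 4.3.3 (TMM scaling, quasi-likelihood test, 1 coefficient per group over all libraries). Calls needed a p no higher than 0.05 after Benjamini-Hochberg adjustment over all 22052 genes, and a log2 difference of 1 or more in either direction. Log2 CPM for correlations used a prior count of 2. The steps were tested on simulated data. Alternatives were RLE and upper-quartile scaling, filters of at least 1 count and of at least 10 counts in every library, DESeq2 1.42.0, a fit of the compared groups alone, the adjusted p alone, and leaving out each library. The members and gene lists were chosen with earlier results of these data known.

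All members were named. A pathway gene was named if it was a receptor or Adam17, or if it passed both limits in at least 1 of the 4 comparisons of an irradiated group with controls, up to 4 per list by p. Lengths came from GENCODE vM21 and promoters from RefSeq, both on GRCm38.p6. Intervals and floors cover counting error only.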

Additional observations from a re-analysis of the deposited data

Results flagged for a closer look

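In the edgeR fit of all libraries, the difference between the effects of 75 Gy on Areg at 6 and 2 weeks was past both limits. The group means were 8.21 ± 3.94 CPM (controls) and 7.31 ± 2.48 CPM (75 Gy) at 2 weeks, and 3.01 ± 0.673 CPM and 21.0 ± 7.50 CPM at 6 weeks (SD, n = 3 each). The effect was larger at 6 weeks by 2.97 (SE 0.55) on the log2 scale. It lay between 2.50 (without control library 3126) and 3.28 (without 75 Gy library 3134) when 1 library was left out, and it passed both limits in 5 of those 12 fits. The family was chosen with these groups known, so this value is a description.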

How the results depend on the processing

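No call of a member reversed under the alternatives run. With at least 10 counts required in every library, which removes Ereg by construction, the members called went from 1 to 0 at 75 Gy and 2 weeks, from 2 to 1 at 75 Gy and 6 weeks and from 2 to 1 at 65 Gy and 6 weeks. The pathway genes called then went from 4 to 2, from 2 to 1 and from 2 to 1 in these comparisons, and from 2 to 0 at 65 Gy and 2 weeks. With only the groups compared in the fit, 0 members were called at 75 Gy and 2 weeks and 1 pathway gene at 65 Gy and 6 weeks. DESeq2 called 1 member at 65 Gy and 2 weeks, where edgeR called 0. By the adjusted p alone, 2, 5, 1 and 3 members and 19, 23, 7 and 10 pathway genes passed at 75 Gy (2 and 6 weeks) and 65 Gy (2 and 6 weeks).

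Leaving out 1 library gave 0 to 1 members at 75 Gy and 2 weeks (0 without 3134), 0 to 1 at 65 Gy and 2 weeks (1 without 3126) and 0 to 2 at 65 Gy and 6 weeks (0 without 3140, 1 without 3136). It gave 2 to 4 pathway genes at 75 Gy and 2 weeks (2 without 3128 or 3134) and 1 to 2 at 65 Gy and 2 weeks. At 6 weeks it gave 1 to 5 at each dose, 5 without control library 3135, which added Dusp5, Egr1 and Fos. The cause of these changes was not tested. No paired analysis was possible because the numbers in the labels are unique to a library and recur in no other group. Low counts limit Ereg in controls, Fosl1, Egf and Epgn.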
